A study of Mus musculus with 33 samples.

Results

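The eicosanoid synthesis genes examined here are 10 genes of arachidonic acid metabolism: Alox5, Alox5ap, Ltc4s, Lta4h, Alox15, Ptgs1, Ptgs2, Ptges, Hpgds and Tbxas1. They were taken by symbol for their place in the pathway, with earlier results of these data known. All 10 were present among the 24421 genes counted in each of 33 RNA-seq libraries.

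The libraries came from macs sorted from C57Bl/6 mice of 6 to 8 weeks of age. Kupffer cells (KCs), the resident macs of the liver, were sorted from Clec4f-crexZeb2fl/fl mice as Tim4+ KCs (n = 6) and Tim4- KCs (n = 6), and from Zeb2fl/fl mice without Cre as CRE- KCs (n = 6). Alveolar macs (AMs), the resident macs of the airspaces of the lung, were sorted from Itgax-crexZeb2fl/fl mice as CD11b- AMs (n = 5) and CD11b+ AMs (n = 5), and from Zeb2fl/fl mice without Cre as CRE- AMs (n = 5). All 6 groups therefore carried the floxed Zeb2 alleles. The comparisons ask how Cre aimed at Zeb2, the gene of the transcription factor ZEB2, bears on each mac population. They also ask how the populations of both tissues differ. Cre line and sort marker differ with the tissue, so for a difference in response these cannot be told apart from tissue. Clec4f is a lectin gene of KCs, whereas Itgax encodes CD11c, so the lung Cre can also act in other CD11c-expressing cells. In the paper's reporter mice, Clec4f-cre also marked a minor share of B cells, which lacked Clec4F. Neither sort selects for the deletion itself: Tim4 and CD11b are surface proteins. The paper reports that SiglecF- KCs and EpCam- AMs of such mice kept a copy of Zeb2. It also reports that KCs were in part replaced from the bone marrow. The share of such cells in the groups with Cre (CRE+) was not tested. Below, deletion stands for the CRE+ genotype and not for its completeness in each cell.

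Eicosanoids are short-lived lipid signals made from arachidonic acid, which phospholipases free from membranes. 5-Lipoxygenase, helped by its activating protein, makes leukotriene A4, which is turned into leukotriene B4 by a hydrolase or into the cysteinyl leukotriene C4 by a synthase. The cyclooxygenases make prostaglandin H2, from which separate synthases make prostaglandin E2, prostaglandin D2, prostacyclin and thromboxane, and macs are a known source of most of these products. Transcript levels say nothing of enzyme activity or of the lipids themselves.

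Libraries held 9837240 to 24332306 reads on genes (median 20683608). Zeb2 had a mean of 281.6 CPM (read counts scaled to a common library total with TMM factors) in CRE- KCs, 174 in Tim4+ and 168.5 in Tim4- KCs, and 195 CPM in CRE- AMs, 105 in CD11b- and 62.5 in CD11b+ AMs. These counts take in reads from exons outside the floxed part and so do not check the deletion directly. Timd4, which encodes Tim4, was at 281 to 438 CPM in Tim4+ KCs and at 0.229 to 8.19 CPM in Tim4- KCs, and Itgam, which encodes CD11b, at 235 to 282 CPM in CD11b+ AMs and at 13.4 to 22.7 CPM in CD11b- AMs. In KC replicates 5 and 6 of every group the female transcript Xist had no read and the Y-linked Ddx3y had 1304 to 1720 reads, whereas Xist had 260 to 534 reads in KC replicates 1 to 4 and 228 to 643 reads in the AM libraries, where Ddx3y had 0 to 1. Sex was thus balanced among the KC groups but not between KCs and AMs. In bulk libraries of this kind, fewer cells of a type and less RNA per cell cannot be told apart.

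Sequence upstream of the start site could be matched for 8 of the 10 genes in RefSeq (GRCm38.p6). The 250 bases before the start of the 4 members called between AM populations are shown here, 5′ to 3′ on the gene's strand, with the E-box CACCTG, a motif that ZEB proteins are known to bind, in capitals. Ptgs2 lies on the plus strand of chromosome 1 (chr1:150099781-150100030), Hpgds on the minus strand of chromosome 6 (chr6:65144731-65144980), Ltc4s on the minus strand of chromosome 11 (chr11:50238533-50238782) and Ptgs1 on the plus strand of chromosome 2 (chr2:36230176-36230425).
Ptgs2: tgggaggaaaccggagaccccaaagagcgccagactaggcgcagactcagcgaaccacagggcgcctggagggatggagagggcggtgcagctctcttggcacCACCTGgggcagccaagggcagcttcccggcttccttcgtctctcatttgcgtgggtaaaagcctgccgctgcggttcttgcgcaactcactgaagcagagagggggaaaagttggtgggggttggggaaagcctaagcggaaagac
Hpgds: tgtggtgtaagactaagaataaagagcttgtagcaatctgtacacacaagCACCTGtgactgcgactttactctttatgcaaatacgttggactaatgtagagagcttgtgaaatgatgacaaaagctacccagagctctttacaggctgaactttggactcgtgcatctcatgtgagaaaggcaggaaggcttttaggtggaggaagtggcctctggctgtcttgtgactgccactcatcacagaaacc
Ltc4s: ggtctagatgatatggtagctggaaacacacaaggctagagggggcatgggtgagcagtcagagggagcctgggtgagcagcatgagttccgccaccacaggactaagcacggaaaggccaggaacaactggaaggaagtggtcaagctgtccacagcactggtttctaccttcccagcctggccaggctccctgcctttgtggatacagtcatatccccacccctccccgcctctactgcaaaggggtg
Ptgs1: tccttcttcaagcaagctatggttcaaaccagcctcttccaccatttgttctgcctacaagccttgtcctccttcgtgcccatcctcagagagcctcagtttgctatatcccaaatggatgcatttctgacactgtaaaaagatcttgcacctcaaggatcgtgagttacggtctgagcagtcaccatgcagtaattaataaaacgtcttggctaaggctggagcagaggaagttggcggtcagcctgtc
The motif was searched on both strands as CACCTG and CAGGTG. It was found once in the Ptgs2 window, 147 bases before the RefSeq start, and once in the Hpgds window, 200 bases before the RefSeq start. By the gene positions given below, which are from GENCODE, the windows of Hpgds and Ltc4s run into the gene. Those of Ptges and Tbxas1 lie within it. The windows of Ltc4s and Ptgs1 above and those of Alox5, Lta4h, Ptges and Tbxas1 held no match, and 17.2% of 32851 RefSeq windows of this length held 1 or more. A match of 6 letters is a description of the sequence and not evidence of binding.

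The leading transcripts of the 10 differed between KCs and AMs. To compare genes with each other, CPM were divided by exon length in kilobases (RPKM), and each gene's share of the summed RPKM of the 10 genes was taken within a library. In CRE- KCs, Ptgs1 made up 65.3% ± 2.30 of this sum (SD, n = 6), Alox5ap 21.9% ± 2.66 and Alox5 0.152% ± 0.0674. In CRE- AMs, Alox5ap made up 44.6% ± 1.54 (SD, n = 5), Ltc4s 28.4% ± 0.844, Alox5 17.0% ± 0.565 and Ptgs1 1.43% ± 0.212. Within the KCs, the Ptgs1 share stayed between 58.8% and 68.5% in all 18 libraries. Within the AMs, the share of Alox5 was 16.2 to 17.7% in CRE-, 17.9 to 20.8% in CD11b- and 22.4 to 26.1% in CD11b+ AMs. The share of Ltc4s was 27.4 to 29.6%, 18.8 to 21.7% and 14.2 to 16.1%, with no overlap between neighbouring groups in either case. A share also rises where other members fall. In the same order, mean levels were 121.7, 128.1 and 140.6 RPKM for Alox5 and 203.7, 138.5 and 88.3 RPKM for Ltc4s.

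**Figure D1:**
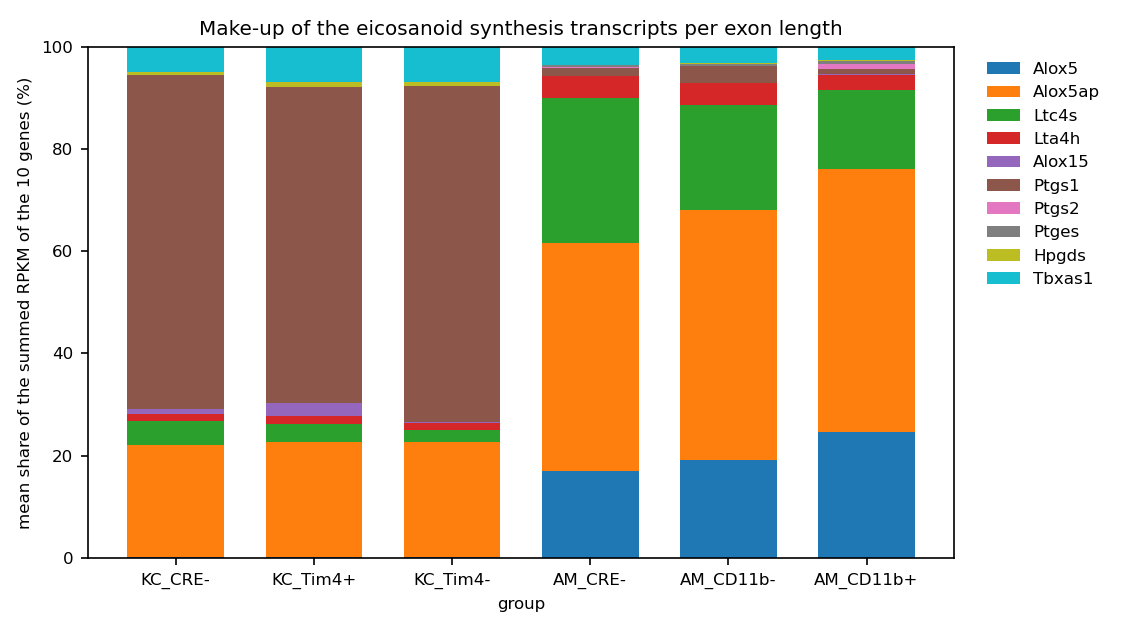
Stacked bars show the mean share (%) of each gene in the summed RPKM of the 10 eicosanoid synthesis genes, by group. Ptgs1 fills 61.9 to 65.7% of the KC bars, whereas Alox5ap, Ltc4s and Alox5 fill most of the AM bars.

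Between CRE- KCs and CRE- AMs, all 10 genes passed the filter on low counts. A gene was called where edgeR's quasi-likelihood test gave an adjusted p-value (Benjamini-Hochberg) under 0.05 and the log2 fold change was beyond 1 in either direction, the fold minimum. In KCs 3 members were called higher, against 20.9% of the 12145 genes tested, and 6 were called lower, against 12.4%. The higher genes were Ptgs1, Hpgds and Alox15, and the lower genes were Alox5, Ptges, Ltc4s, Alox5ap, Lta4h and Ptgs2. Tbxas1 was not called (log2 fold change 0.30, adjusted p = 0.0037). The median log2 fold change was -1.60 over the 10 genes and 0.03 over all genes tested. Transcripts of hepatocytes and liver endothelial cells were found almost only in the KC libraries (summed CPM of 5 hepatocyte markers 146 to 370 in CRE- KCs and 0 to 0.358 in CRE- AMs; of 6 endothelial markers 541 to 1764 and 1.33 to 2.74), and those of lung epithelial cells mainly in the AM libraries (6 markers, 22.3 to 32.5 CPM in CRE- AMs and 0 to 0.0863 in CRE- KCs). Their part in the differences was not tested.

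**Figure D2:**
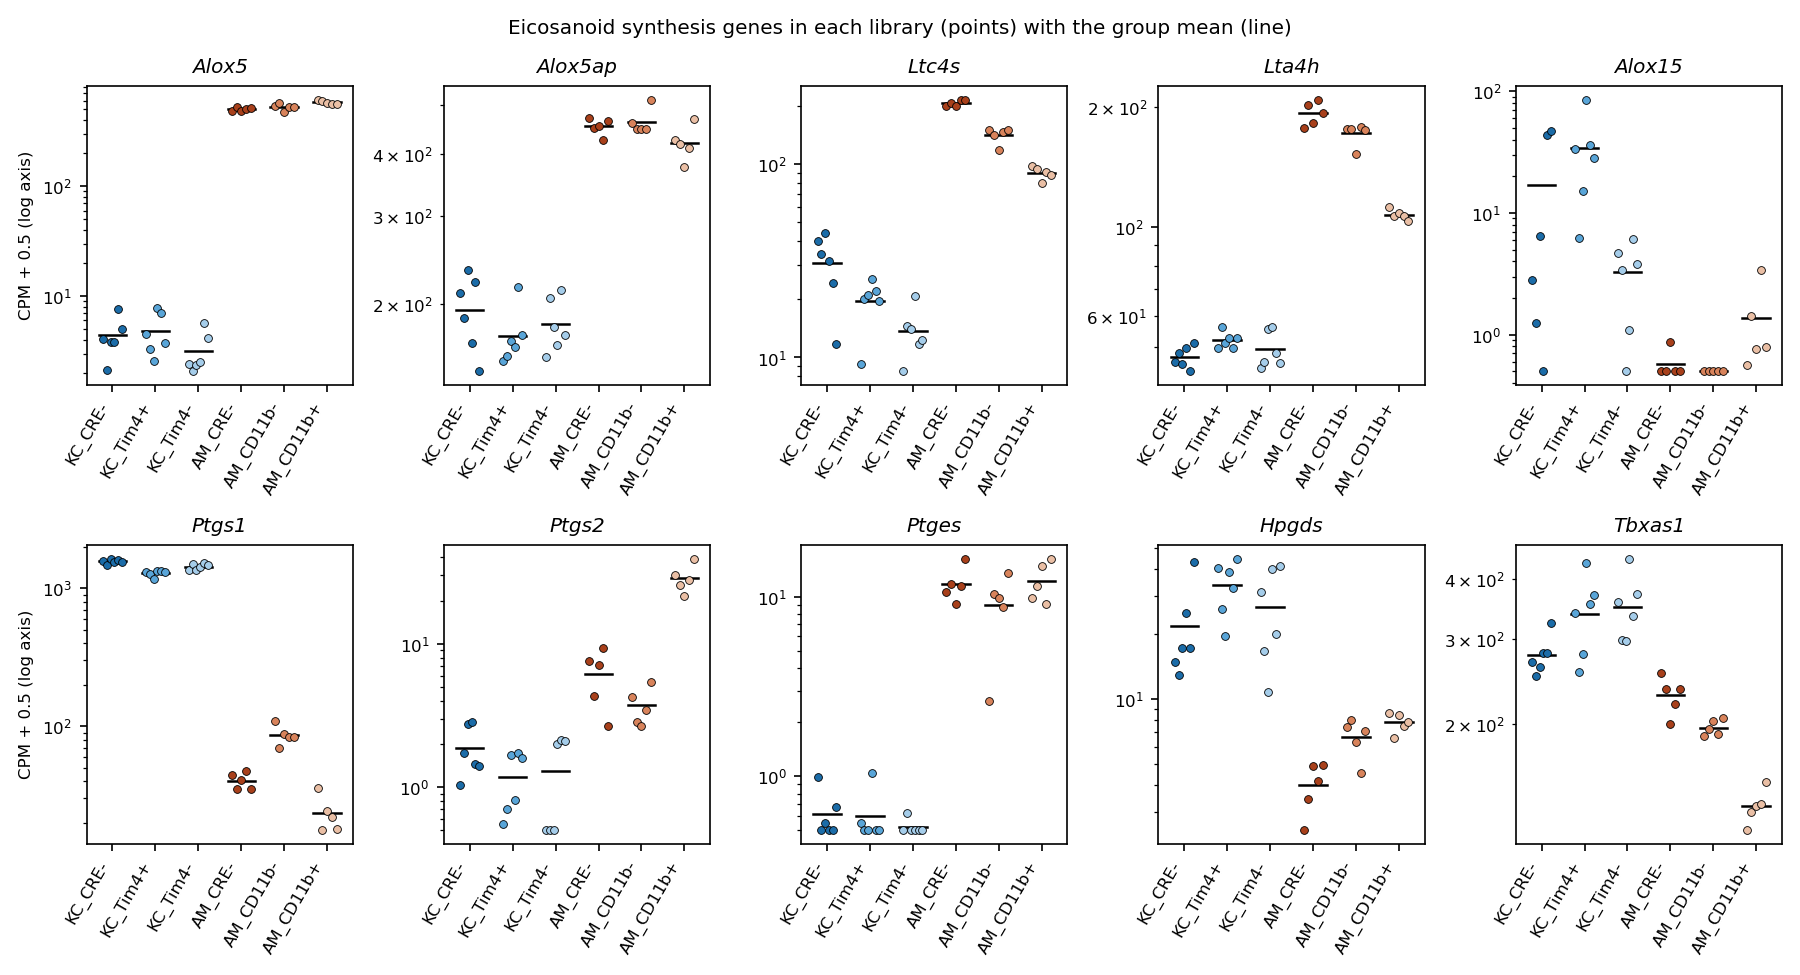
Each panel plots 1 gene, with 1 point per library (CPM + 0.5, log axis) and a line at the group mean, for 6 KC libraries or 5 AM libraries a group. Alox5 stands at 472 to 613 CPM in all AM libraries and at 1.57 to 7.29 CPM in all KC libraries, and Ptgs2 in CD11b+ AMs (21.2 to 38.8 CPM) lies above every other library.

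Alox5, which encodes 5-lipoxygenase (chromosome 6, 116410077 to 116461178, minus strand, GRCm38), separated the tissues. CRE- AM libraries had 478, 521, 483, 508 and 509 CPM, and CRE- KC libraries had a lowest, median and highest value of 1.62, 3.47 and 7.10 CPM. No KC library came near an AM library, and the level in CRE- KCs was 126-fold lower (log2 fold change -6.98, SE 0.24, adjusted p = 6.26e-12). After deletion in AMs, CD11b- AMs had 538, 567, 472, 530 and 523 CPM and CD11b+ AMs 613, 595, 568, 557 and 554 CPM. CD11b+ AMs lay above every CRE- AM library, by 0.20 on the log2 scale (adjusted p = 0.0073), a difference under the fold minimum, and CD11b- AMs overlapped both other groups. In KCs the medians were 3.66 CPM in Tim4+ and 1.95 CPM in Tim4- cells, with overlapping ranges and adjusted p-values of 0.925 and 0.322 against CRE- KCs. The order of mean levels was CD11b+, CD11b- and CRE- AMs, then Tim4+, CRE- and Tim4- KCs, and the step from CRE- AMs to Tim4+ KCs alone passed an exact permutation test between neighbours (two-sided, adjusted p = 0.0265 over 50 pairs of neighbours).

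Alox5ap, which encodes FLAP, the membrane protein that presents arachidonic acid to 5-lipoxygenase (chromosome 5, 149264767 to 149288153, plus strand), was abundant in both tissues. CRE- AMs had 471, 450, 455, 426 and 464 CPM and CRE- KCs 146, 198 and 232.5 CPM (lowest, median, highest), so that the groups did not overlap and KCs were 2.29-fold lower (log2 fold change -1.20, SE 0.11, adjusted p = 1.57e-07). No group passed the test against the control of its tissue: KC medians were 166 CPM in Tim4+ and 176 CPM in Tim4- KCs, and AM means were 463 ± 28.3 CPM in CD11b- and 419 ± 33.3 CPM in CD11b+ AMs (SD, n = 5), all with adjusted p-values of 0.1096 or more. The FLAP transcript was thus present in KCs in which the 5-lipoxygenase transcript was at a few CPM.

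Ltc4s encodes leukotriene C4 synthase, the enzyme that joins glutathione to leukotriene A4 (chromosome 11, 50236461 to 50238616, minus strand), and was called lower in CD11b+ AMs and in Tim4- KCs. CRE- AM libraries had 200, 206, 199, 213 and 215 CPM, CD11b- AMs 149, 141, 118, 146 and 149 CPM, and CD11b+ AMs 96.9, 94.0, 79.5, 90.5 and 86.9 CPM. These 3 groups were fully apart. CD11b+ AMs fell by 1.22 on the log2 scale against CRE- AMs (SE 0.07, adjusted p = 4.14e-11, 2.33-fold), and CD11b- AMs differed by -0.56 (adjusted p = 9.04e-06), under the fold minimum. CD11b+ AMs differed from CD11b- AMs by -0.66 (adjusted p = 6.22e-07).

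In KCs, Ltc4s was at 11.2, 32.4 and 43.4 CPM in CRE- cells (lowest, median, highest), at 8.80, 20.02 and 25.0 CPM in Tim4+ cells and at 7.99, 12.6 and 20.4 CPM in Tim4- cells. The ranges overlapped, with CRE- replicate 6 as the lowest control. Tim4- KCs fell by 1.22 on the log2 scale against CRE- KCs (SE 0.28, adjusted p = 0.00275), and the call held when any 1 library was left out. Tim4+ KCs differed from CRE- KCs by -0.69 (adjusted p = 0.171) and Tim4- from Tim4+ KCs by -0.53 (adjusted p = 0.246). The average response of the CRE+ KC groups, after subtraction of the average response of the CRE+ AM groups, was -0.06 on the log2 scale (SE 0.27, adjusted p = 0.958), so that no difference between the tissues was detectable. Liver endothelial markers were also lower in Tim4- KCs (6 of 6, summed level 288 to 425 CPM, against 541 to 1764 in CRE- and 979 to 3001 in Tim4+ KCs, none at 0). In the same cells 4 of 5 Kupffer cell markers, Clec4f, Vsig4, Timd4 and Marco, were called lower (summed level 9044 to 10375 CPM, against 21353 to 23302 in CRE- KCs). Timd4 encodes the protein used for the sort, so its call was set by the sort. Clec4f carries the inserted Cre in the CRE+ mice, and was called lower in Tim4+ KCs as well (log2 fold change -1.23). Marco was called higher in Tim4+ than in CRE- KCs (1.39, adjusted p = 0.00428). Of the 3 monocyte markers tested 1, Ccr2, was called higher in Tim4- KCs (sum of 4 markers 281 to 805 CPM, against 69.5 to 303 in CRE- KCs). Ccr2 was called higher in Tim4+ than in CRE- KCs as well (2.11, adjusted p = 0.000106), with a sum of 87.4 to 328 CPM in Tim4+ KCs. Of 5 eosinophil markers, Epx, Prg2 and Prg3 were at 0 in CRE- KCs, whereas Ccr3 was called higher in Tim4+ and Tim4- KCs than in CRE- KCs and Il5ra was not called (sum 43.2 to 61.1 CPM in CRE-, 110 to 589 in Tim4+ and 142 to 679 in Tim4- KCs). The summed level of 7 mast cell and basophil markers was 0 to 0.149 CPM in CRE- KCs. The part of these cells in the results for Tim4- KCs, here and in the rest of the pathway, was not tested.

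Lta4h encodes leukotriene A4 hydrolase, which makes leukotriene B4 (chromosome 10, 93453411 to 93484875, plus strand). It had 177, 202, 182, 208 and 192 CPM in CRE- AMs, 176, 175, 152, 178 and 174 CPM in CD11b- AMs and 112, 106, 108, 106 and 103 CPM in CD11b+ AMs. CD11b+ AMs lay below both other AM groups without overlap, by -0.86 against CRE- (SE 0.06, adjusted p = 8.10e-10) and by -0.69 against CD11b- AMs (adjusted p = 5.49e-08) on the log2 scale, both under the fold minimum. In KCs, Lta4h had medians of 46.6, 51.5 and 46.8 CPM in CRE-, Tim4+ and Tim4- cells, and the 3 comparisons gave adjusted p-values of 0.489 or more. The difference between the tissues in their response to deletion was itself tested and was 0.61 on the log2 scale (SE 0.08, adjusted p = 7.23e-07). CRE- KCs were 4.02-fold lower than CRE- AMs (log2 fold change -2.01, SE 0.07, adjusted p = 3.94e-12).

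Ptgs1 encodes cyclooxygenase 1, the enzyme that is expressed without stimulation in many cells (chromosome 2, 36230426 to 36252272, plus strand), and was the leading transcript of the 10 in KCs. CRE- KCs had 1487, 1573 and 1645 CPM (lowest, median, highest), Tim4+ KCs 1167, 1310 and 1344 CPM and Tim4- KCs 1355, 1447 and 1522 CPM. Tim4+ KCs lay below both other groups without overlap, by -0.31 against CRE- KCs (SE 0.05, adjusted p = 0.000765), under the fold minimum, while Tim4- KCs differed from CRE- KCs by -0.14 (adjusted p = 0.0536) and from Tim4+ KCs by 0.16 (adjusted p = 0.0545).

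In AMs, Ptgs1 moved in opposite directions in the CD11b- and CD11b+ populations. CRE- AMs had 43.4, 34.4, 40.0, 46.9 and 34.5 CPM, CD11b- AMs 109, 68.9, 86.6, 83.1 and 83.6 CPM, and CD11b+ AMs 34.9, 17.1, 23.7, 21.6 and 17.6 CPM. Every CD11b- library lay above every other AM library, whereas replicate 1 of CD11b+ AMs lay within the CRE- range. CD11b- AMs rose by 1.11 on the log2 scale against CRE- AMs (SE 0.16, adjusted p = 3.92e-05). CD11b+ AMs fell by 1.92 against CD11b- AMs (SE 0.17, adjusted p = 3.62e-08), and differed from CRE- AMs by -0.81 (SE 0.17, adjusted p = 0.000495), under the fold minimum. Without replicate 1 of CD11b+ AMs that difference was -1.01 and passed it. CRE- KCs were 40.2-fold higher than CRE- AMs (log2 fold change 5.33, SE 0.095, adjusted p = 9.39e-15).

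Ptgs2 encodes cyclooxygenase 2, the inducible enzyme (chromosome 1, 150100031 to 150108227, plus strand), and had the largest rise among the members in CD11b+ AMs. CRE- AMs had 7.04, 3.82, 6.61, 8.81 and 2.15 CPM, CD11b- AMs 3.75, 2.33, 2.15, 2.95 and 4.87 CPM, and CD11b+ AMs 29.6, 25.3, 21.2, 27.4 and 38.8 CPM. All CD11b+ libraries lay above all others, and the other 2 groups overlapped. CD11b+ AMs rose by 2.31 on the log2 scale against CRE- AMs (SE 0.30, adjusted p = 2.42e-06, 4.96-fold) and by 3.14 against CD11b- AMs (SE 0.31, adjusted p = 1.93e-07, 8.81-fold). CD11b- AMs differed from CRE- AMs by -0.83 (adjusted p = 0.0526), and passed both thresholds without CD11b- replicate 5 (-1.03, adjusted p = 0.0258) or CRE- replicate 5 (-1.04, adjusted p = 0.00757). Per exon length the Ptgs2 level in CD11b+ AMs, 6.22 ± 1.44 RPKM (SD, n = 5), was close to that of Ptgs1 in the same libraries, 5.92 ± 1.85 RPKM, whereas in CRE- AMs the levels were 1.24 ± 0.582 RPKM for Ptgs2 and 10.3 ± 1.41 RPKM for Ptgs1.

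Neutrophil markers were also higher in CD11b+ AMs, and to a lesser level in CD11b- AMs. The summed CPM of 8 markers was 6.80 to 9.80 in CRE-, 718 to 2302 in CD11b- and 7854 to 10106 in CD11b+ AMs. The 6 that passed the filter on low counts (S100a8, S100a9, Cxcr2, Retnlg, Mmp9 and Ltf) were all called higher in CD11b+ than in CRE- AMs. Ngp and Camp were at 0 in all CD11b- AM libraries, and no marker of the list was at 0 in all CD11b+ AM libraries. The 4 monocyte markers were also called higher in CD11b+ AMs (6.03 to 9.41 CPM summed in CRE- and 67.0 to 251 in CD11b+ AMs). Their part in the AM results was not tested.

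In KCs, Ptgs2 was near the detection limit. CRE- KCs had 0.541, 1.08 and 2.35 CPM (lowest, median, highest), Tim4+ KCs 0.0518, 0.702 and 1.22 CPM, and Tim4- KCs 0, 0.756 and 1.63 CPM. Replicates 1, 2 and 3 of Tim4- KCs had no read for Ptgs2, whereas replicates 4, 5 and 6 had 1.51, 1.63 and 1.60 CPM. No KC comparison passed the test, with adjusted p-values of 0.582 or more. CRE- KCs were 4.07-fold lower than CRE- AMs (log2 fold change -2.02, SE 0.44, adjusted p = 0.00102), with overlapping ranges.

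Ptges encodes microsomal prostaglandin E synthase 1, which acts on the product of the cyclooxygenases (chromosome 2, 30889471 to 30929863, minus strand). CRE- AMs had 10.1, 11.3, 8.64, 10.9 and 15.7 CPM, CD11b- AMs 2.13, 9.81, 9.31, 8.21 and 13.1 CPM, and CD11b+ AMs 9.33, 11.0, 14.3, 8.55 and 15.8 CPM. The AM groups overlapped, with adjusted p-values of 0.272 or more, and CD11b- replicate 1 was the lowest library. In KCs 3 of 6 CRE-, 4 of 6 Tim4+ and 5 of 6 Tim4- libraries had no read for Ptges, the highest library had 0.537 CPM, and the gene did not pass the filter in the comparisons within KCs. CRE- KCs were lower than CRE- AMs by -6.49 on the log2 scale (SE 0.64, adjusted p = 5.56e-07). Of the 3 synthases downstream of the cyclooxygenases among the members, Ptges was the one almost without reads in KCs. The prostaglandin E synthase genes Ptges2 and Ptges3, of the other synthesis enzymes below, had reads in both tissues. Their means were 23.5 and 163 CPM in CRE- KCs and 44.3 and 204.5 CPM in CRE- AMs.

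Hpgds encodes hematopoietic prostaglandin D synthase (chromosome 6, 65117293 to 65144908, minus strand). It was at 12.4, 16.8 and 42.5 CPM (lowest, median, highest) in CRE- KCs, 19.0, 35.2 and 44.2 CPM in Tim4+ KCs and 10.3, 25.0 and 40.6 CPM in Tim4- KCs. These ranges overlapped and no KC comparison passed the test, with adjusted p-values of 0.346 or more. In AMs the level was lower: CRE- AMs had 1.97, 2.94, 4.39, 3.66 and 4.45 CPM, CD11b- AMs 6.95, 7.48, 5.80, 4.05 and 6.65 CPM, and CD11b+ AMs 8.11, 6.13, 7.98, 7.01 and 7.30 CPM. CD11b+ AMs lay above all CRE- AMs and rose by 1.06 on the log2 scale (SE 0.23, adjusted p = 0.00103). Without CRE- replicate 1, the lowest library, the difference was 0.91 and no longer passed the fold minimum. CD11b- AMs differed from CRE- AMs by 0.83 (adjusted p = 0.0125), under that minimum. CRE- KCs were 6.20-fold higher than CRE- AMs (log2 fold change 2.63, SE 0.34, adjusted p = 8.87e-06).

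Tbxas1 encodes thromboxane A synthase 1 (chromosome 6, 38875404 to 39084585, plus strand) and was well expressed in both tissues. CRE- AMs had 255, 236, 200, 220 and 236 CPM, CD11b- AMs 188, 195, 202, 190 and 205 CPM, and CD11b+ AMs 120, 131, 135, 136 and 151 CPM. CD11b+ AMs lay below both other groups, by -0.78 against CRE- (SE 0.07, adjusted p = 1.83e-08) and by -0.55 against CD11b- AMs (adjusted p = 4.25e-06), both under the fold minimum. KCs had medians of 274, 347 and 346 CPM in CRE-, Tim4+ and Tim4- cells, and the differences of 0.26 and 0.32 from CRE- KCs did not pass the test (adjusted p = 0.243 and 0.0530). The responses of KCs and AMs to deletion, each with its own Cre line, differed by 0.81 on the log2 scale (SE 0.13, adjusted p = 1.25e-05). The summed level of 6 platelet markers was 0.795 to 9.76 CPM over all 33 libraries.

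Alox15 encodes 12/15-lipoxygenase (chromosome 11, 70344152 to 70352031, minus strand) and varied widely among replicates. CRE- KCs had 0, 4.12 and 46.6 CPM (lowest, median, highest), Tim4+ KCs 5.77, 30.5 and 84.9 CPM and Tim4- KCs 0, 3.11 and 5.55 CPM. Every Tim4+ library lay above every Tim4- library, if barely, and CRE- KCs spanned both. Tim4- KCs were lower than Tim4+ KCs by -3.64 on the log2 scale (SE 1.05, adjusted p = 0.0269). The call was lost with limma-voom (adjusted p = 0.109) and without Tim4- replicate 2, 3 or 4 or Tim4+ replicate 4 (adjusted p = 0.0515, 0.0517, 0.0587 and 0.0731), while the difference stayed between -4.66 and -3.10 under all alternatives. Tim4- KCs differed from CRE- KCs by -2.63 (adjusted p = 0.0643) and Tim4+ from CRE- KCs by 1.01 (adjusted p = 0.653).

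The CRE- KC libraries with high Alox15 were replicates 5 and 6, at 43.4 and 46.6 CPM, which were also the libraries without Xist, while replicates 1 to 4 had 2.31, 0.745, 5.94 and 0 CPM. With KC replicates 1 to 4 alone, an alternative chosen after the values were seen, the difference was 3.92 between Tim4+ and CRE- KCs (adjusted p = 0.0869), -0.33 between Tim4- and CRE- KCs (adjusted p = 0.871) and -4.25 between Tim4- and Tim4+ KCs (adjusted p = 0.0308). Alox15 was also higher in CRE- KCs than in CRE- AMs (log2 fold change 7.68, SE 1.70, adjusted p = 0.00118), where 4 of 5 libraries had no read and the remaining one 0.370 CPM. That call was lost with limma-voom (adjusted p = 0.0964), and with KC replicates 1 to 4 alone Alox15 did not pass the filter on low counts. No read was found in any of the 5 CD11b- AM libraries, and CD11b+ AMs had 0.0610, 0.920, 0.262, 2.87 and 0.292 CPM.

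Over all 33 libraries the gene whose log2 CPM followed that of Alox15 most closely was Prg4 (Pearson r = 0.924), followed by Selp (0.889) and Padi4 (0.883). Prg4 and Selp are known from large peritoneal macs, and Alox15 is a known transcript of these cells. The CPM of 4 other genes known from these cells (Gata6, F5, Serpinb2 and Garnl3) were therefore summed, without Prg4 and Selp, as these were found by their likeness to Alox15. The 4 genes were set after this likeness was seen. Their summed level was 4.03, 5.96, 6.94, 2.61, 23.2 and 17.6 CPM in CRE- KC replicates 1 to 6, 14.8, 6.83, 4.61, 61.1, 19.0 and 12.2 CPM in Tim4+ KCs, and 1.60, 3.09, 1.71, 6.86, 4.11 and 4.44 CPM in Tim4- KCs. The 6 libraries with the highest sums were the 6 with the highest Alox15, as a description. Gata6 was at 0 to 1.12 CPM in CRE-, 0 to 3.13 in Tim4+ and 0 to 0.297 in Tim4- KCs. The part of such cells in the Alox15 values was not tested.

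**Figure D3:**
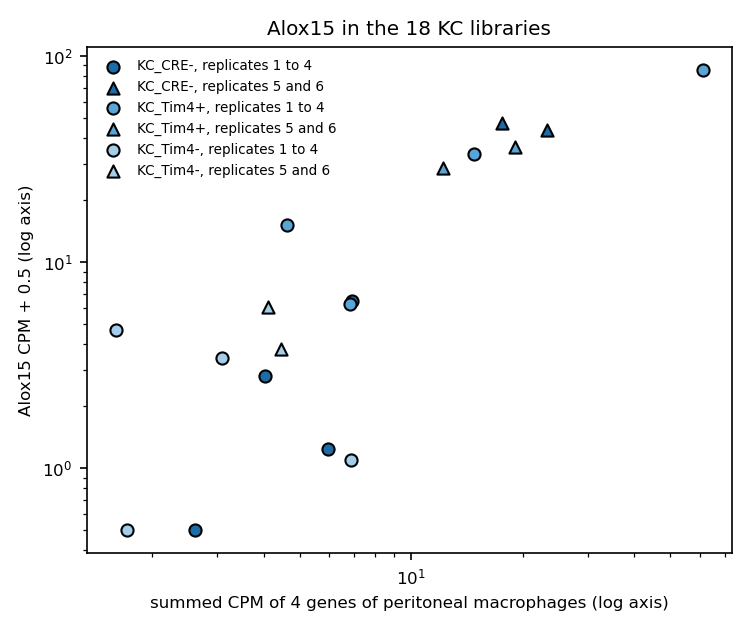
Each point is 1 of 18 KC libraries, with the summed CPM of 4 genes known from peritoneal macs on the x axis and Alox15 (CPM + 0.5) on the y axis, both log axes, and triangles for replicates 5 and 6. Libraries with sums of 12.2 CPM and above had 28.0 to 84.9 CPM of Alox15, and those below had 0 to 14.6 CPM.

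Between Tim4+ and CRE- KCs, 9 members were tested and none was called (edgeR's quasi-likelihood test), against 1.94% of 12500 genes called higher and 0.376% called lower. The median log2 fold change was 0.12 over the 9 members. At an unadjusted p-value under 0.05 there were 3 members, and limma-voom and DESeq2 called none. Between Tim4- and CRE- KCs, 1 of 9, Ltc4s, was called lower and none higher, against 5.39% lower and 3.43% higher over all genes. Without CRE- replicate 1, 2 or 4, Alox15 was called lower as well. Between Tim4- and Tim4+ KCs, 1 of 9, Alox15, was called lower and none higher, against 5.01% and 0.440%. The comparisons share the CRE- or the Tim4+ libraries and are not independent.

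Within AMs, 9 members were tested and Alox15 was not. CD11b- AMs had 1 member called higher than in CRE- AMs (Ptgs1), against 3.98% of 11573 genes, and none called lower, against 2.51%. CD11b+ AMs had 2 members called higher than in CRE- AMs (Ptgs2 and Hpgds), against 9.57%, and 1 called lower (Ltc4s), against 5.68%. Between CD11b+ and CD11b- AMs, 1 was called higher (Ptgs2), against 6.85%, and 1 lower (Ptgs1), against 3.30%. In CD11b+ against CRE- AMs 7 of 9 members passed the adjusted p-value, and 4 of these did so with differences under the fold minimum. These 4 were Lta4h, Ptgs1, Tbxas1 and Alox5.

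For the difference of the deletion response between the tissues, none of 10 members passed both thresholds, against 3.50% of 13294 genes higher and 4.65% lower in KCs. There were 4 members at an unadjusted p-value under 0.05, DESeq2 called none and limma-voom called Ptgs2 (-2.77, adjusted p = 0.0136), which in edgeR had a difference of -1.63 (adjusted p = 0.149). Lta4h and Tbxas1 passed the adjusted p-value with differences under the fold minimum, as given above. Zeb2 itself had a difference of 0.55 between the responses (edgeR's quasi-likelihood test, adjusted p = 0.00174). Tissue, Cre line, sort marker and the extent of the Zeb2 fall cannot be told apart in this comparison.

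**Figure D4:**
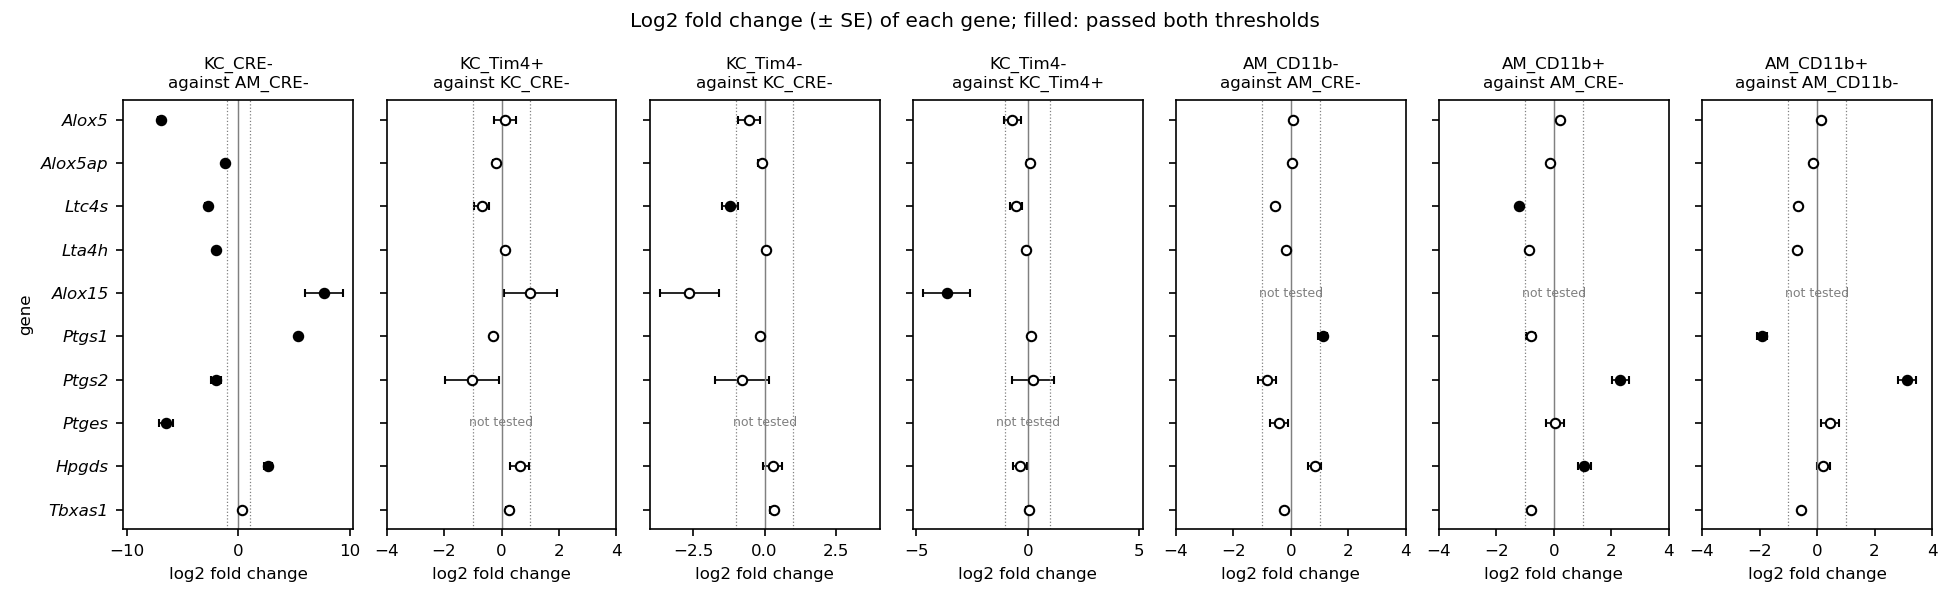
Points show the log2 fold change of each gene and bars its SE in 7 comparisons, filled where both thresholds were passed, with dotted lines at the fold minimum of 1 on the log2 scale. In KC_CRE- against AM_CRE- 9 points are filled, in KC_Tim4+ against KC_CRE- none.

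Across the 6 groups, 17 of 50 steps between neighbours in the order of mean levels passed the exact permutation test (two-sided, adjusted over the 50). For Ltc4s the 3 AM steps were apart in the order CRE-, CD11b-, CD11b+ AMs, and then CRE- KCs (adjusted p = 0.0265 for each of these 3 steps), while the order CRE-, Tim4+, Tim4- within KCs did not pass (adjusted p = 0.213 and 0.154). For Ptgs1 the KC order was CRE-, Tim4- and Tim4+, and both steps passed (adjusted p = 0.0265), as did the step to CD11b- AMs and that from CD11b- to CRE- AMs. In the edgeR fit neither KC step passed (adjusted p = 0.0536 and 0.0545). For Alox15 no step passed. For Alox5, Alox5ap, Ptges and Hpgds the step between an AM and a KC group alone passed.

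For the other members whose group means differed at least 4-fold, the most similar genes over the 33 libraries (Pearson r of log2 CPM) were Perp for Alox5 (0.994), C5ar1 for Ltc4s (0.973), Ffar4 for Lta4h (0.992), Clec1b for Ptgs1 (0.990), Trf for Ptgs2 (0.918), AI504432 for Ptges (0.981) and Arhgap19 for Hpgds (0.948). The libraries fall into 2 tissues, so that any gene with a large tissue difference reaches a high value. C5ar1, which encodes the C5a receptor, had means of 1038, 743 and 493 CPM in CRE-, CD11b- and CD11b+ AMs, and 234, 199 and 167 CPM in CRE-, Tim4+ and Tim4- KCs. Trf, which encodes transferrin, had 3301, 3230 and 8255 CPM in the AM groups in the same order.

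The rest of the pathway was examined through 4 lists of genes. Of 9 genes of arachidonate release, 5 were tested between CRE- KCs and CRE- AMs, and 3 were higher in KCs and none lower, against 20.9% and 12.4% of all genes: Pla2g4a, the cytosolic phospholipase A2 (172.5 ± 38.1 CPM, n = 6, against 75.9 ± 3.04 CPM, n = 5, SD), Pla2g12a (21.1 ± 3.67 against 8.82 ± 1.04 CPM) and Pla2g4c (2.004 ± 0.989 against 0.0367 ± 0.0602 CPM). Pla2g12a fell in Tim4- KCs to 10.3 ± 2.81 CPM (log2 fold change -1.05, adjusted p = 0.000135), the only call of this list among the KC comparisons. Against CRE- KCs, 1 of 5 genes tested was thus lower and none higher, against 5.39% and 3.43% of all genes. Pla2g12a was not called with KC replicates 1 to 4 alone. Pla2g2d rose from 0.0561 ± 0.0505 CPM in CRE- AMs to 1.51 ± 0.819 CPM in CD11b- and 1.67 ± 1.15 CPM in CD11b+ AMs (adjusted p = 0.000181 and 4.81e-05).

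Among 13 other synthesis enzymes, 9 were tested between the CRE- groups, of which 3 were higher and 4 lower in KCs, against 20.9% and 12.4% of all genes. The higher genes were led by Ptgis, which encodes prostacyclin synthase (46.5 ± 18.6 CPM, n = 6, against 0.0781 ± 0.0877 CPM, n = 5, SD), with Prxl2b, a prostamide and prostaglandin F synthase (21.8 ± 2.79 against 1.84 ± 0.518 CPM), and Alox12, the platelet-type 12-lipoxygenase. The 4 that were lower included Mgst2 (0.109 ± 0.0994 against 6.39 ± 1.46 CPM), Mgst3 (11.7 ± 2.50 against 163.5 ± 16.6 CPM) and Aloxe3 (0.987 ± 0.332 against 12.8 ± 3.69 CPM). Mgst2 encodes a microsomal glutathione transferase that can also make leukotriene C4. In Tim4- KCs, Ptgis and Alox12 were lower than in CRE- KCs (log2 fold change -1.58 and -1.65, adjusted p = 0.00807 and 0.0263). Alox12 was also lower than in Tim4+ KCs (-2.10, adjusted p = 0.0120), along with the endothelial markers given above. Ptgis was not called between Tim4- and Tim4+ KCs (-0.60, adjusted p = 0.385). In Tim4+ KCs it was at 24.0 ± 10.7 CPM and not called against CRE- KCs (-0.97, adjusted p = 0.204). Of the 6 endothelial markers, 0 were called in Tim4+ against CRE- KCs. The part of endothelial cells in these results was not tested.

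In AMs, Mgst2 moved against Ltc4s. It rose from 6.39 ± 1.46 CPM in CRE- to 14.9 ± 3.30 CPM in CD11b- AMs (log2 fold change 1.21, adjusted p = 3.03e-05) and 44.3 ± 5.25 CPM in CD11b+ AMs (2.78, adjusted p = 1.15e-10), each group of 5 libraries lying above the one before. Gstm1, a cytosolic glutathione transferase, rose from 391.7 ± 15.8 CPM to 1456 ± 68.7 CPM in CD11b+ AMs (1.88, adjusted p = 4.69e-15). Mgst3, another microsomal glutathione transferase gene of the list, fell with Ltc4s. It had 163.5 ± 16.6, 114.2 ± 5.25 and 86.7 ± 5.15 CPM in CRE-, CD11b- and CD11b+ AMs. CD11b+ AMs differed from CRE- AMs by -0.93 for Mgst3 (edgeR's quasi-likelihood test, adjusted p = 2.88e-09), under the fold minimum. Of the 8 genes of this list tested in AMs, 3 rose in CD11b+ AMs and 1, Aloxe3, fell (-1.42, adjusted p = 0.000215), against 9.57% and 5.68% of all genes. In CD11b- AMs 1 rose and none fell, against 3.98% and 2.51%. Prxl2b was the remaining riser in CD11b+ AMs, from 1.84 ± 0.518 to 5.05 ± 0.537 CPM. Compared with CD11b- AMs, the same 3 genes were higher in CD11b+ AMs and none was lower, against 6.85% and 3.30% of all genes.

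Among 13 genes of inactivation, later steps and transport, 11 were tested between the CRE- groups, of which 4 were higher and 3 lower in KCs, against 20.9% and 12.4% of all genes. Hpgd, which encodes the dehydrogenase that inactivates prostaglandins, had 2554 ± 290 CPM in CRE- KCs (SD, n = 6) and 6.45 ± 1.18 CPM in CRE- AMs (n = 5), which is higher by 8.66 on the log2 scale (SE 0.15, adjusted p = 6.17e-15). Its mean was 2559 CPM in Tim4+ and 2500 CPM in Tim4- KCs. Slco2a1, the prostaglandin transporter, was at 38.0 ± 17.3 CPM in CRE- KCs and 0.904 ± 0.279 CPM in CRE- AMs, and fell in Tim4- KCs to 8.84 ± 1.68 CPM (-2.12 against CRE- and -2.53 against Tim4+ KCs, adjusted p = 0.000151 and 7.88e-05). Slco2a1 is also a known transcript of liver endothelium. Dpep2, a dipeptidase that converts leukotriene D4 to leukotriene E4, had 1.92 ± 1.09 CPM in CRE- KCs, below the 146 ± 8.40 CPM of CRE- AMs, and rose in both CRE+ KC groups, to 17.1 ± 9.46 CPM in Tim4+ (3.13, adjusted p = 1.90e-05) and 27.0 ± 10.02 CPM in Tim4- KCs (3.79, adjusted p = 6.07e-07).

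Dpep2 was the only gene of this list called in Tim4+ against CRE- KCs, 1 of 11 tested, against 1.94% of all genes higher and 0.376% lower. Cyp4f18, a leukotriene B4 hydroxylase, was also higher in Tim4- than in CRE- KCs (1.22, adjusted p = 0.00199). In that comparison 2 of 11 were higher and 1 lower, against 3.43% and 5.39% of all genes. In AMs Hpgd rose in CD11b+ cells, from 6.45 ± 1.18 to 16.1 ± 6.73 CPM (1.31, adjusted p = 0.00187), and was the only call against CRE- AMs. In CD11b+ AMs 1 of 11 tested was thus higher and none lower, against 9.57% and 5.68% of all genes. Ptgr1, a prostaglandin and leukotriene B4 reductase, was lower in CD11b+ than in CD11b- AMs (17.6 ± 2.94 against 42.6 ± 5.05 CPM, -1.29, adjusted p = 7.50e-08). In the difference of responses between the tissues, Dpep2 was higher in KCs (4.08, adjusted p = 2.89e-10) and Slco2a1 lower (-1.82, adjusted p = 0.0249). Gstm1 and Pla2g2d of the lists above were also lower in KCs (-1.58 and -5.27, adjusted p = 1.03e-05 and 0.000384). Pla2g2d had means of 0.163, 0.308 and 0.0297 CPM in CRE-, Tim4+ and Tim4- KCs, so that its difference rests on few KC reads. For Dpep2 the CRE+ AM groups had 97.9 ± 10.4 CPM (CD11b-) and 94.1 ± 6.52 CPM (CD11b+).

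Of 13 eicosanoid receptors, 8 were tested between the CRE- groups, with 4 higher and 2 lower in KCs, against 20.9% and 12.4% of all genes. The thromboxane receptor gene Tbxa2r (11.1 ± 6.32 against 0.0994 ± 0.157 CPM) and the cysteinyl leukotriene receptor genes Cysltr2 (2.81 ± 0.862 against 0.108 ± 0.241 CPM) and Cysltr1 (33.5 ± 6.95 against 5.71 ± 0.793 CPM) were higher in KCs, as was Ltb4r1. The prostacyclin receptor gene Ptgir (0.279 ± 0.377 against 21.8 ± 5.53 CPM) and the prostaglandin E receptor gene Ptger4 were lower. Prostacyclin synthase transcripts were thus higher in KCs and those of the prostacyclin receptor higher in AMs.

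Within KCs, the receptor genes Ltb4r1 and Tbxa2r moved in opposite directions in Tim4- cells. Ltb4r1, which encodes the high-affinity leukotriene B4 receptor, rose from 0.909 ± 0.413 CPM in CRE- to 5.48 ± 2.78 CPM in Tim4- KCs (2.57, adjusted p = 0.000151). Tbxa2r fell from 11.1 ± 6.32 to 3.75 ± 2.40 CPM (-1.56, adjusted p = 0.0229). In AMs, CD11b+ cells had 3 receptor genes of 7 higher than in CRE- AMs and none lower, against 9.57% and 5.68% of all genes: Ltb4r1 (3.16 ± 1.94 against 0.237 ± 0.149 CPM, 3.69, adjusted p = 0.000903), Ltb4r2 (2.62, adjusted p = 0.000597) and Ptgir (59.8 ± 5.38 against 21.8 ± 5.53 CPM, 1.44, adjusted p = 6.15e-07). Ltb4r1 is also a known transcript of neutrophils, whose markers are given above. In CD11b- AMs 1 of 7 receptor genes was called lower and none higher, against 2.51% and 3.98% of all genes. This was Cysltr1, which fell from 5.71 ± 0.793 to 1.01 ± 0.428 CPM (-2.49, adjusted p = 3.77e-05). The response of Cysltr1 to deletion differed between the tissues (2.15, adjusted p = 1.998e-07, higher in KCs). Cysltr2 was also called there, but had reads in 2 of 15 AM libraries, at 0.538 and 0.0511 CPM, so that its difference rests on few reads.

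**Figure D5:**
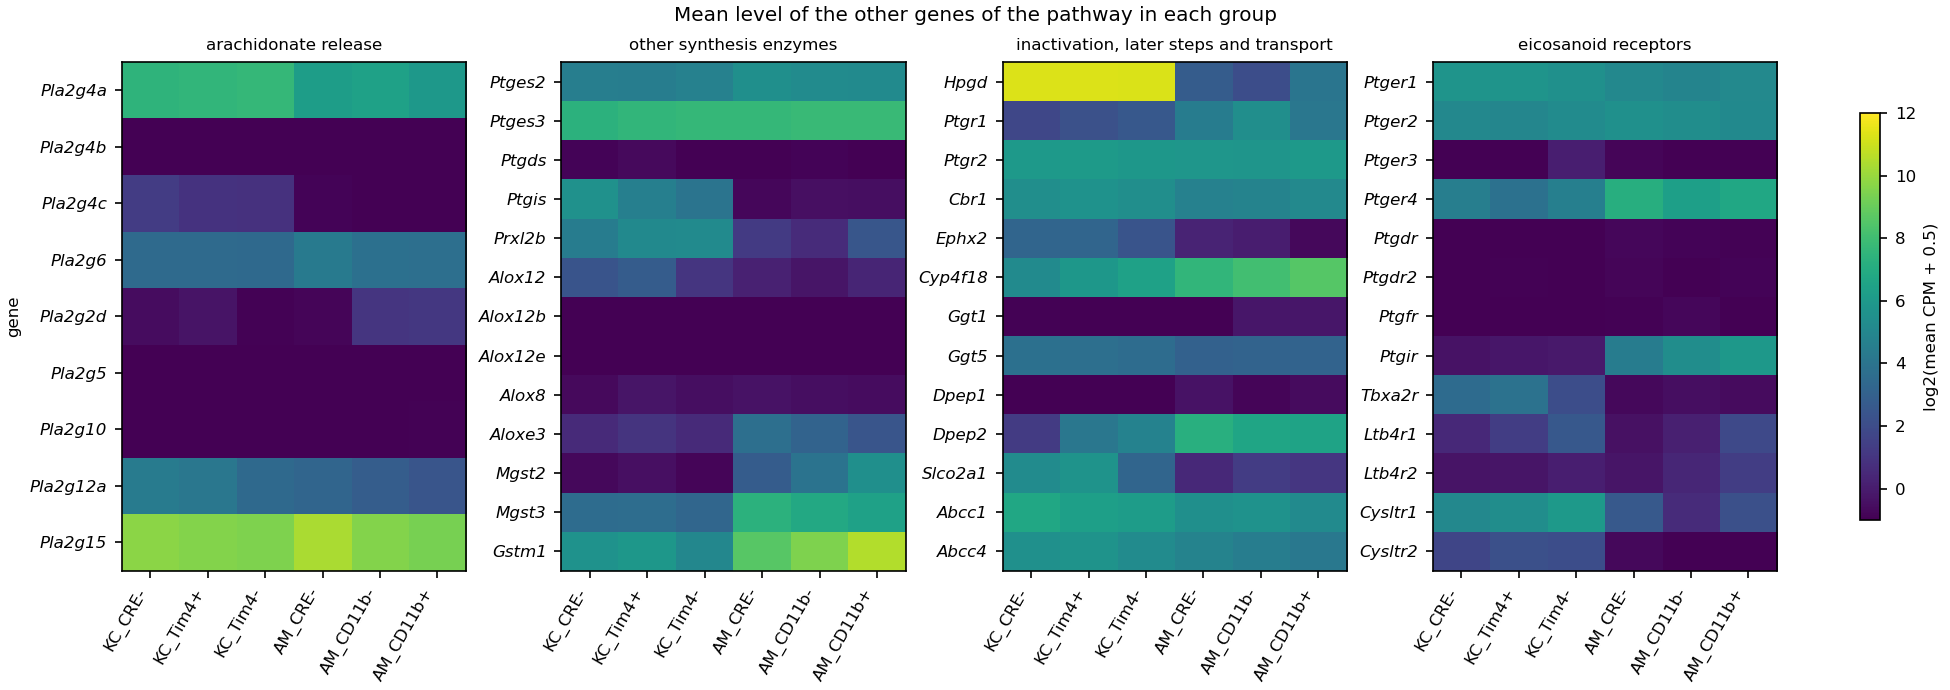
Colours give log2(mean CPM + 0.5) of 48 other genes of the pathway (rows) in each of the 6 groups (columns), in 4 lists. Hpgd stands out in KCs at means of 2500 to 2559 CPM, and Gstm1 in CD11b+ AMs at 1456 CPM.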

How the data were processed

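The authors sequenced RNA of sorted macs and deposited 1 table of read counts per library. Per the labels and the study's methods, reads were trimmed with Trimmomatic 0.35, checked with FastQC 0.11.4, mapped to mm10 with TopHat2 2.1.0, handled with SAMtools 0.1.18 and counted with HTSeq-count (versions from the submitters' processing notes). The annotation is not given in the sources used here. Each table held 24421 genes and 5 tally rows (5.88 to 10.1% of reads), which were left out.

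Genes passing edgeR's filterByExpr were fitted with its quasi-likelihood test (edgeR 4.0.16, R 4.3.3) with TMM factors, on the KC libraries, the AM libraries, both CRE- groups, or all 33. P-values were adjusted by Benjamini-Hochberg over all genes tested, and calls required an adjusted value under 0.05 together with a log2 fold change beyond 1 in either direction. The SE was taken as the log2 fold change over the square root of F. CPM used TMM factors over the 33 libraries, and 0.5 CPM was added before logs. Exon lengths and positions came from GENCODE M21. Python 3.11.15, pandas 2.3.3, numpy 2.4.6 and scipy 1.17.1 were used, with limma 3.58.1 (limma-voom, the study's method) and DESeq2 1.42.0 as alternatives. The other alternatives were the normalization, the low-count filter, the fold minimum, the libraries in the fit, Ddx3y as a covariate, a replicate block and leaving out each library. The fits were tested on simulated data.

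Members and lists were chosen with earlier results of these data known. Other pathway genes were named where called and among the 3 largest changes of their list, and some from counts of 5 or fewer after their values were seen. The labels do not say that replicates are separate animals, so p-values measure the spread between these samples. No 2 libraries of a group agreed within sampling noise (lowest mean chi-square per gene 12.4). Replicate numbers paired Tim4- with Tim4+ KCs, where the deviations from group means correlated in all 6 pairs (r = 0.156 to 0.303). Between CD11b+ and CD11b- AMs all 5 pairs matched best with their own number, and 4 were over 0.1 (r = 0.0754 to 0.13). In each other comparison at least 1 pair was under 0.1. The main fits and the permutation test did not use this pairing.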

Additional observations from a re-analysis of the deposited data

Results flagged for a closer look

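In 9 of 59 pairs of a member and a group, 1 library stood far from the others of its group on the log2 scale (Dixon's criterion, which chance meets in about 1 in 20 groups). For Alox5ap these were Tim4+ KC replicate 5 (216 CPM) and CD11b- AM replicate 5 (513 CPM), both high. For Ltc4s they were Tim4+ KC replicate 1 (8.80 CPM) and CD11b- AM replicate 3 (118 CPM), both low, and the latter library was also the low one for Lta4h (152 CPM). Ptges was low in CD11b- AM replicate 1 (2.13 CPM) and had reads above the rest of the group in Tim4+ KC replicate 4 (0.537 CPM) and Tim4- KC replicate 2 (0.127 CPM). The single CRE- AM library with Alox15 reads was replicate 3 (0.370 CPM). For Alox15 in CRE- AMs and Ptges in both CRE+ KC groups, most libraries had no read, so the chance rate does not apply there.

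The response to deletion differed between KCs and AMs for Lta4h by 0.606 on the log2 scale (adjusted p = 7.23e-07) and for Tbxas1 by 0.805 (adjusted p = 1.25e-05, edgeR's quasi-likelihood test). Both were lower in CD11b+ than in CRE- AMs, whereas the Lta4h ranges of CD11b- and CRE- AMs overlapped. For Tbxas1 the KC means were 278, 338 and 350 CPM in CRE-, Tim4+ and Tim4- cells, where neither difference from CRE- KCs passed the test. The differences between the tissues were under the fold minimum.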

How the results depend on the processing

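Of 221 recomputed counts of members or neighbour steps, 203 stayed within 1.5 times the reported count. Without the fold minimum, the members called were 1 for Tim4+ and 4 for CD11b- cells against their CRE- controls, 7 for CD11b+ against CRE- AMs, 5 for CD11b+ against CD11b- AMs and 2 for the difference between tissues, for which limma-voom called 1. With all 33 libraries in the fit, Tim4- against CRE- KCs had 2 calls. For Tim4- against Tim4+ KCs there were 0 with at least 10 counts in every library, where Alox15 was not tested, and 0 with limma-voom. Leaving out 1 library gave 1 to 2 calls for Tim4- against CRE- KCs (2 without CRE- replicate 1, 2 or 4), 0 to 1 for Tim4- against Tim4+ KCs (0 without Tim4- replicate 2, 3 or 4 or Tim4+ replicate 4), 1 to 2 for CD11b- against CRE- AMs (2 without replicate 5 of either group), 2 to 4 for CD11b+ against CRE- AMs, 8 to 9 between CRE- KCs and AMs, and 12 to 18 of the neighbour steps. The replicate block changed no count of members called, and Alox15 in Tim4- against Tim4+ KCs was -3.71 with it (adjusted p = 0.0241).

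Differences that changed sign had not been called. Ptgs2 in Tim4- against Tim4+ KCs was -1.20 with limma-voom, -0.11 with the replicate block, -0.16 with KC replicates 1 to 4 alone (chosen after the data were seen) and -0.097 to 0.51 with 1 library left out. In the difference between tissues, Alox15 was 0.0019 with the replicate block and Ltc4s 0.049 with limma-voom. With 1 library left out, the ranges were -4.38 to 0.0064 for Alox15, -0.23 to 0.075 for Ltc4s and -2.32 to 0.31 for Ptges there, -0.084 to 0.39 for Alox5 in Tim4+ against CRE- KCs, -0.022 to 0.14 for Tbxas1 in Tim4- against Tim4+ KCs, -0.0078 to 0.045 for Alox5ap in CD11b- and -0.079 to 0.20 for Ptges in CD11b+ against CRE- AMs. The cause was not tested. Ptgs2 and Ptges had no read in 3 and 5 of 6 Tim4- KC libraries, which limits what their values there can show.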
